A study of Danio rerio with 2 samples.

Results

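The genes examined here encode the core of the transforming growth factor β (TGF-β) pathway: the ligands *tgfb1a*, *tgfb1b*, *tgfb2* and *tgfb3*, their type I and type II receptors, SMAD3 and the inhibitory SMAD7. They were chosen by symbol from a list of 10, and 11 of the 32520 genes counted in each library matched. *tgfb1a*, *tgfb1b*, *tgfb2*, *tgfb3* and *smad7* matched by their own symbol. For *tgfbr1a*, *tgfbr1b*, *tgfbr2b*, *smad3a* and *smad3b*, the gene names used here give a capital symbol without the paralog letter, so the 6 genes named TGFBR1, TGFBR2 or SMAD3 are shown by Ensembl ID and not assigned to a or b.

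TGF-β is secreted in a latent form and, once released, binds the type II receptor, which activates the type I receptor kinase. The type I receptor phosphorylates SMAD2 and SMAD3, which enter the nucleus with SMAD4, and SMAD7 blocks this step. In mammals the pathway restrains effector T cells, helps form regulatory and tissue-resident T cells, and shapes macrophages in tissues and tumors. SB431542 inhibits the TGF-β type I receptor kinase and the related activin and nodal type I receptors.

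RNA-seq was performed on 2 sorted populations of zebrafish, with 1 library each. The thymus lymphocyte library holds lymphocytes labelled lck:mCherry+/CD8:EGFP+ from untreated fish, in which EGFP is driven by a fragment upstream of *cd8a* and mCherry by the *lck* promoter. The sample labels put these fish at 6 weeks, or 1.5 months, and the study's methods at a slightly older age. The tumor myeloid library holds EGFP+ cells labelled myeloid and CD8 dendritic, sorted from melanoma of fish with the same *cd8a* reporter. Those fish also carry human BRAF V600E and lack p53 and, except where a *mitfa* minigene was put back, *mitfa* (nacre). The label gives these fish an age of 6 weeks and 24 h of SB431542, whereas the study's account of this RNA-seq does not mention the drug. How many fish were pooled is not given in the sources used here. The libraries thus differ in tissue, cell type, genotype and drug label at once, and no library of untreated melanoma myeloid cells was analysed here, so an effect of SB431542 cannot be told apart from the other differences.

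The thymus lymphocyte library had 32975680 reads on genes and the tumor myeloid library 39446435. Levels are given as reads per 1000000 reads on genes (CPM), with a 95% Wilson interval that covers the counting error of reads only. PCR copies were not told apart by molecular identifiers, so reads are not independent and all intervals given here can be too narrow. For a gene without reads, a floor of 3 reads was used in place of the interval, which is 0.0910 CPM for thymus lymphocytes and 0.0761 CPM for the tumor myeloid library, and a ratio written as at least N-fold is taken against that floor. CPM is not scaled for gene length, so each gene was compared between the libraries. Which genes of each pathway list are named was chosen in part by rank of CPM, and that choice depends on gene length. With 1 library per group there is no replicate check and no test, and every ratio compares these libraries, not conditions. All 10 T cell markers were at 1 CPM or more in thymus lymphocytes and 2 of 10 in the tumor myeloid library, *tcf7* and *cd8a*. Of 20 mononuclear phagocyte genes, 12 reached 1 CPM in the tumor myeloid library and 0 in thymus lymphocytes, with summed levels of 1432 and 0.849 CPM. Of 7 dendritic cell genes, 3 reached 1 CPM in the tumor myeloid library and 4 in thymus lymphocytes. *flt3* had 2 reads, the XCR1 genes 1 and 4 reads and CCR7 0 reads in the tumor myeloid library. IRF8 was at 8.85 CPM there and 1.39 CPM in thymus lymphocytes, BATF3 at 6.59 and 4.03 CPM, and ZBTB46 at 3.37 and 18.3 CPM. The summed level of the dendritic cell list was 19.0 CPM in the tumor myeloid library against 309 CPM in thymus lymphocytes, of which CCR7 made up 285 CPM. The tumor myeloid library also held melanocyte RNA, with 7 of 8 melanocyte genes at 1 CPM or more and a summed level of 24178 CPM against 1.15 CPM in thymus lymphocytes. In reads, not scaled for gene length, its melanocyte sum was larger than its mononuclear phagocyte sum of 1432 CPM. These sums are over different genes and do not measure shares of cells. Of the melanocyte sum, 1 TYRP1 gene made up 16778 CPM. All 4 matched neutrophil genes reached 1 CPM in the tumor myeloid library, with a summed level of 656 CPM against 132 CPM in thymus lymphocytes. MMP9 made up 440 CPM of the former and nearly all of the latter, while *mmp13a* was at 179 CPM and *lyz* at 7.55 CPM in the tumor myeloid library. For *npsn*, 1152 reads were counted in the tumor myeloid library, or 29.2 CPM, against 1 read in thymus lymphocytes. The neutrophil symbols *mpx* and *cpa5* matched no gene. The study reports no *mpx* expression in its sorted myeloid cells from melanoma, which could not be checked here. Which cells the reads of the 4 matched genes came from was not tested. Also at 1 CPM or more in the tumor myeloid library were 4 of 5 keratinocyte and epithelial genes, with *cdh1* at 142 CPM, and 1 of 4 erythrocyte genes, *hbaa1* at 18.6 CPM. The other keratinocyte gene, TP63, was at 0.761 CPM there and at 32.6 CPM in thymus lymphocytes. Markers of fibroblasts, thrombocytes and thymic epithelium were all below 1 CPM in both libraries.

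The thymus lymphocytes held RNA of both TGFBR1, both TGFBR2 and both SMAD3 genes together with *tgfb1b*, *tgfb1a* and *tgfb3*, whereas in the tumor myeloid library the *tgfb1* ligands and *smad7* were present and the TGFBR2 genes had 37 reads in all. Of the 11 genes, 10 were at 1 CPM or more in thymus lymphocytes, where 39.8% of all genes were, and 5 in the tumor myeloid library, where 33.0% of all genes were. The 5 genes at 1 CPM or more in the tumor myeloid library were *tgfb1a*, *tgfb1b*, 1 TGFBR1 gene, 1 SMAD3 gene and *smad7*, and all 5 also reached 1 CPM in thymus lymphocytes. Over all genes at 1 CPM or more in the tumor myeloid library, 20.6% were below 1 CPM in thymus lymphocytes. Of the 10 genes at 1 CPM or more in thymus lymphocytes, 5 were below it in the tumor myeloid library, against 34.2% of all such genes. In bulk RNA, fewer cells of a type and less RNA per cell cannot be told apart.

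**Figure D1:**
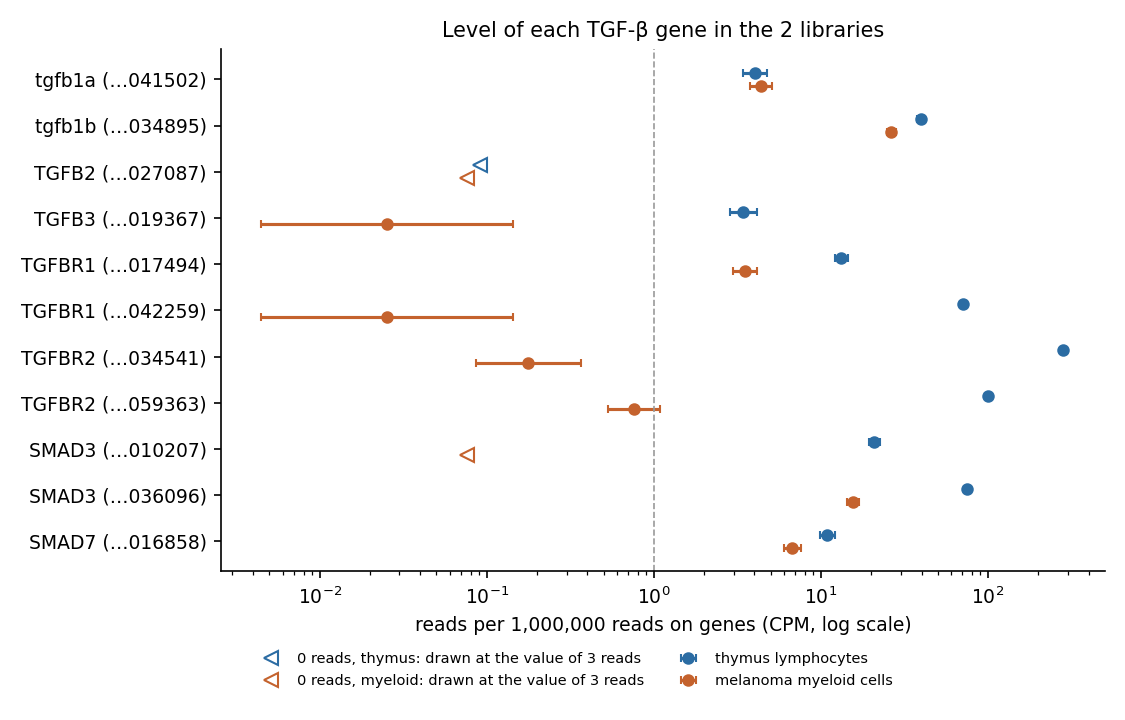
Level of each of the 11 TGF-β pathway genes in CPM (log scale) in thymus lymphocytes (blue) and the tumor myeloid library (orange), with 95% Wilson intervals. Open triangles mark 0 reads and are drawn at the value of 3 reads, and the dashed line is 1 CPM. For *tgfb1a*, *tgfb1b* and *smad7*, the level of each gene in one library lies close to its level in the other. Both TGFBR2 genes lie at 99.4 CPM or more in thymus lymphocytes and below 1 CPM in the tumor myeloid library.

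Among the ligands, *tgfb1b* (ENSDARG00000034895), one of a pair of zebrafish genes for TGF-β1, carried most reads of the pair in both libraries. It had 1301 reads in thymus lymphocytes, or 39.5 CPM (37.4 to 41.7), and 1042 reads in the tumor myeloid library, or 26.4 CPM (24.9 to 28.1). The ratio of thymus to myeloid was 1.49 (95% interval 1.38 to 1.62, counting error only), and it fell to 0.997 when TMM factors from edgeR scaled the libraries and to 1.03 with DESeq2 size factors, so no direction can be given for *tgfb1b*. Its paralog *tgfb1a* (ENSDARG00000041502) had 133 reads in thymus lymphocytes, or 4.03 CPM (3.40 to 4.78). In the tumor myeloid library *tgfb1a* had 172 reads, or 4.36 CPM (3.76 to 5.06), and the ratio of myeloid to thymus was 1.08 (0.857 to 1.37). For *tgfb1a* the ratio rose to 1.62 with TMM and 1.57 with DESeq2 size factors, both above that interval. By total reads on genes, the CPM intervals of *tgfb1a* overlap, and those of *tgfb1b* do not. TGF-β1 RNA was therefore found in the thymus lymphocytes and in the tumor myeloid library at levels less than 2-fold apart for either gene.

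TGFB3 (ENSDARG00000019367), the gene for TGF-β3, had 113 reads in thymus lymphocytes, or 3.43 CPM (2.85 to 4.12), and 1 read in the tumor myeloid library, or 0.0254 CPM. The ratio of thymus to myeloid was 135, with a wide counting interval of 23.8 to 5386 that rests on the single myeloid read. TGFB2 (ENSDARG00000027087), the gene for TGF-β2, had 0 reads in both libraries. Of the 3 types of TGF-β, the reads in the tumor myeloid library were thus nearly all on TGF-β1 genes, and in thymus lymphocytes on TGF-β1 and TGF-β3 genes.

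The type II receptor, which binds the ligand and starts the signal, was far higher in the lymphocytes on both genes. TGFBR2 (ENSDARG00000034541) had 9283 reads in thymus lymphocytes, or 282 CPM (276 to 287). In the tumor myeloid library the same gene had 7 reads, or 0.177 CPM (0.0860 to 0.366), so that its thymus level was 1586-fold higher (770 to 3947). The other TGFBR2 gene (ENSDARG00000059363) had 3279 reads in thymus lymphocytes, or 99.4 CPM (96.1 to 103), and 30 reads in the tumor myeloid library, or 0.761 CPM (0.533 to 1.09). Its thymus level was 131-fold higher (91.4 to 194). Both genes thus went the same way, and together they had 12562 reads in thymus lymphocytes and 37 in the tumor myeloid library.

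Of the type I receptor genes, which encode the kinase that SB431542 inhibits, 1 was kept at a low level in the tumor myeloid library and 1 was nearly absent. TGFBR1 (ENSDARG00000042259) had 2330 reads in thymus lymphocytes, or 70.7 CPM (67.8 to 73.6), and 1 read in the tumor myeloid library, or 0.0254 CPM (0.00448 to 0.144). The ratio of thymus to myeloid was 2787, and its counting interval starts at 499.8. The other TGFBR1 gene (ENSDARG00000017494) had 437 reads in thymus lymphocytes, or 13.3 CPM (12.1 to 14.6), and 139 reads in the tumor myeloid library, or 3.52 CPM (2.98 to 4.16). This gene was 3.76-fold higher in thymus lymphocytes (3.10 to 4.59), just under the 4-fold limit used here for calling a gene different. With TMM it was 2.51-fold higher and with DESeq2 size factors 2.59-fold. The TGFBR1 RNA of the tumor myeloid library therefore came almost entirely from the gene that carried fewer of the pair's reads in thymus lymphocytes.

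SMAD3, the receptor-activated transcription factor, showed a similar split. SMAD3 (ENSDARG00000036096) had 2474 reads in thymus lymphocytes, or 75.0 CPM (72.1 to 78.0), and 614 reads in the tumor myeloid library, or 15.6 CPM (14.4 to 16.8). It was 4.82-fold higher in thymus lymphocytes (4.41 to 5.27), and 3.22-fold higher with TMM and 3.32-fold higher with DESeq2 size factors, which ends the 4-fold call. The other SMAD3 gene (ENSDARG00000010207) had 689 reads in thymus lymphocytes, or 20.9 CPM (19.4 to 22.5), and 0 reads in the tumor myeloid library. That is at least 275-fold lower against the floor of 3 reads, with a counting interval of the ratio that starts at 223. SMAD7 (ENSDARG00000016858), the inhibitory SMAD that TGF-β itself induces in mammals, had 359 reads in thymus lymphocytes, or 10.9 CPM (9.82 to 12.1). In the tumor myeloid library it had 266 reads, or 6.74 CPM (5.98 to 7.60). The ratio of thymus to myeloid was 1.61 (1.37 to 1.90) for SMAD7, and 1.08 with TMM and 1.11 with DESeq2 size factors, so that the ratio was near 1 under both of these scalings.

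At the 4-fold limit, 6 of the 11 genes were higher in thymus lymphocytes, namely TGFB3, 1 TGFBR1 gene, both TGFBR2 genes and both SMAD3 genes, and 0 were higher in the tumor myeloid library. Of the 15139 genes that reached 1 CPM in at least 1 library, 39.2% were 4-fold or more higher in thymus lymphocytes and 21.9% in the tumor myeloid library. TGFB2 did not pass this filter, and 5 of the other 10 genes passed it only through thymus lymphocytes. The median log2 ratio of myeloid over thymus, with 1 CPM added to both, was −2.11 over all 11 genes and −0.73 over the 15139 genes. On a scale without added CPM, on which no count was taken as below 3 reads, the medians were −2.27 and −0.80. Relative to that general shift, *tgfb1a*, *tgfb1b* and *smad7*, at 0.09, −0.56 and −0.62 with 1 CPM added, lay above the median of the genes tested. For *smad7* the margin was within its counting error.

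**Figure D2:**
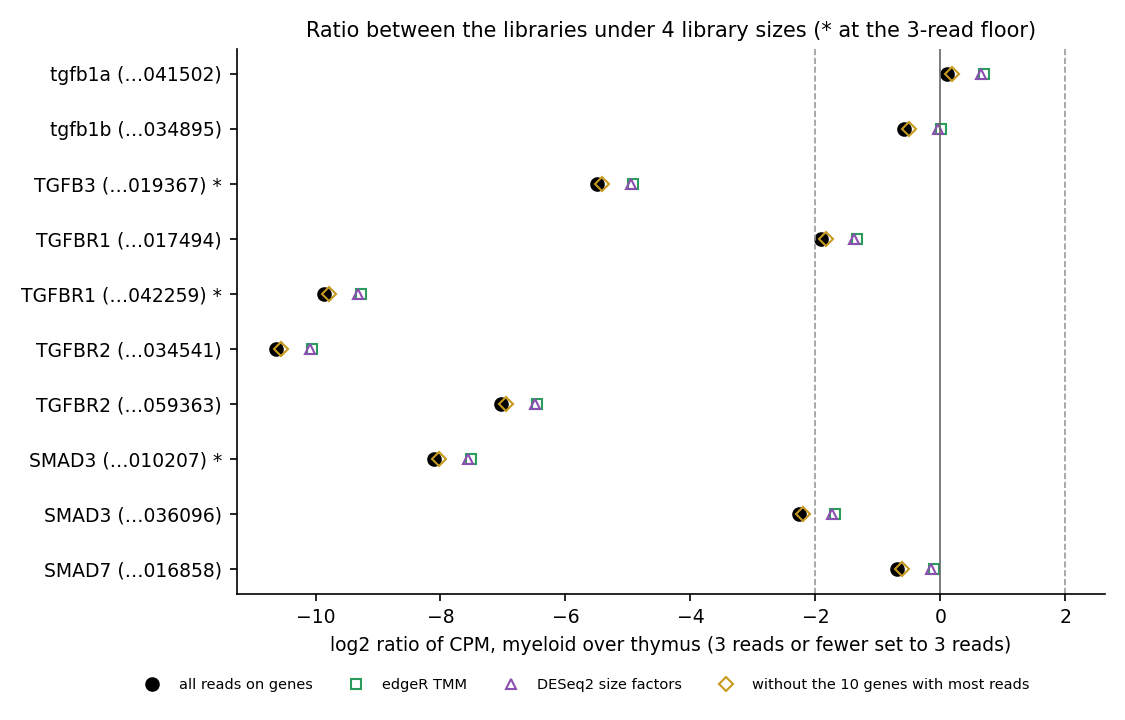
Log2 ratio of CPM, myeloid over thymus, for the 10 TGF-β pathway genes with reads, under 4 library sizes, with counts of 3 reads or fewer set to 3 reads (starred genes). Dashed lines mark 4-fold, and the solid line marks equal levels. On this scale the largest of the 10 differences is that of TGFBR2 (ENSDARG00000034541), and *tgfb1b* lies at the solid line with TMM and DESeq2 size factors.

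Values that bear on low counts in the tumor myeloid library are given here. Of the 8451 genes at 10 CPM or more in thymus lymphocytes, 16.0% had 3 reads or fewer in the tumor myeloid library. Of the 8 TGF-β pathway genes at that level, 2 did, 1 TGFBR1 gene and 1 SMAD3 gene. The same share with the libraries exchanged was not computed. ITGB1, which encodes the β1 integrin found on nearly all nucleated cells and was looked at after the values were seen, had 3290 reads over its 4 genes in thymus lymphocytes and 7 reads in the tumor myeloid library. Other genes looked up in the same way were not all low there, with TGFBRAP1 at 53.8 CPM in thymus lymphocytes and 37.9 CPM in the tumor myeloid library. Whether transcripts were lost from the tumor myeloid library was not tested, nor was the part of melanoma RNA in the levels of the TGF-β genes.

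Paralog use was compared as the share of a pair's reads on each gene, which does not depend on library size. The share is not scaled for length, so its value and the size of its difference between the libraries depend on the lengths of both genes. Only the direction of that difference is free of length, as long as the same transcripts were made. On *tgfb1b* lay 90.7% of the *tgfb1* reads in thymus lymphocytes (exact 95% interval 89.1 to 92.2, of 1434 reads) and 85.8% in the tumor myeloid library (83.7 to 87.7, of 1214 reads). Most *tgfb1* reads were thus on *tgfb1b* in both libraries, and the intervals of its share did not overlap. For TGFBR1, the gene ENSDARG00000042259 took 84.2% of the pair's reads in thymus lymphocytes (82.8 to 85.5, of 2767 reads) and 0.714% in the tumor myeloid library (0.0181 to 3.92, of 140 reads).

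For TGFBR2, ENSDARG00000034541 took 73.9% in thymus lymphocytes (73.1 to 74.7, of 12562 reads) and 18.9% in the tumor myeloid library (7.96 to 35.2, of only 37 reads). Both receptor pairs thus had most reads on opposite paralogs in the 2 libraries. For SMAD3, ENSDARG00000036096 took 78.2% in thymus lymphocytes (76.7 to 79.6, of 3163 reads) and 100% in the tumor myeloid library (99.4 to 100, of 614 reads). The gene with more SMAD3 reads was therefore the same in both. Whether reads that fit both copies of a pair were lost or split in the authors' counting was not examined.

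**Figure D3:**
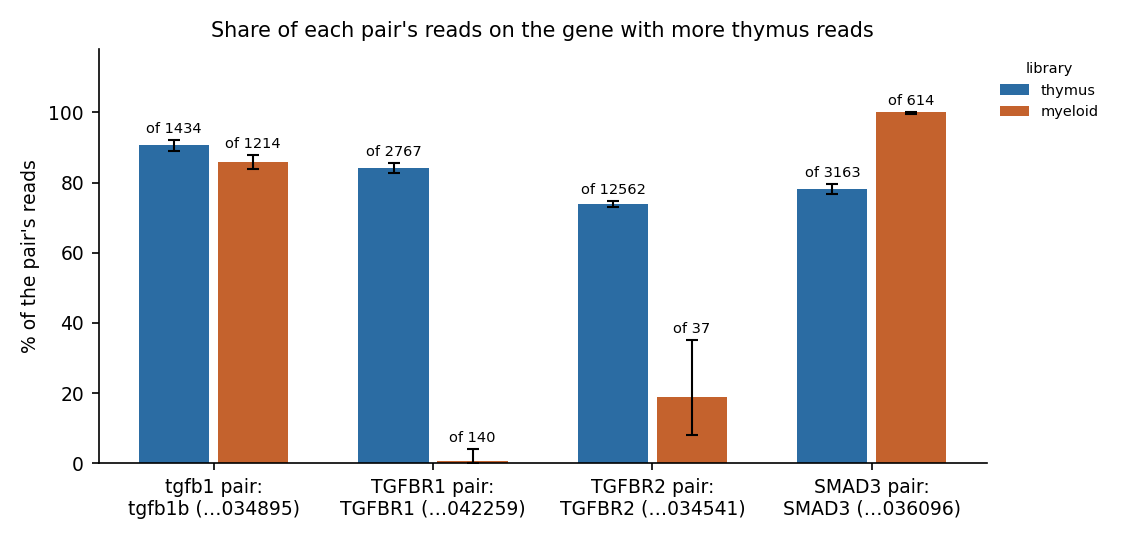
Percent of the reads of each paralog pair that lay on the gene with more reads in thymus lymphocytes, in thymus lymphocytes (blue) and the tumor myeloid library (orange). Bars start at 0, error bars are exact 95% binomial intervals of counting error, and the number above each bar is the pair's reads. The share falls from 84.2% to 0.714% for TGFBR1 and from 73.9% to 18.9% for TGFBR2, and stays at 78.2% or more for *tgfb1* and SMAD3.

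The rest of the superfamily was read from 8 lists of 73 other genes. Of these, 44 were at 1 CPM or more in thymus lymphocytes and 43 in the tumor myeloid library, and 32 were so in both, where 39.8% and 33.0% of all genes reached that level in thymus lymphocytes and the tumor myeloid library. By the same 4-fold limit, 19 of the 73 genes were higher in the tumor myeloid library and 17 in thymus lymphocytes, while 18 did not reach 1 CPM in either library. The shares over the 15139 genes tested, 21.9% and 39.2%, stand beside these counts and those of each list. Those shares leave out genes below 1 CPM in both libraries, whereas the list counts are out of all matched genes. Counts of lists this small are given as a description.

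Of the other type I receptors that SB431542 inhibits, both ACVR1B genes, which encode an activin and nodal receptor, were present in both libraries, and ACVR1C had 0 reads in both. ACVR1B (ENSDARG00000018968) was at 7.37 CPM in thymus lymphocytes and 31.7 CPM in the tumor myeloid library, 4.31-fold higher there (3.75 to 4.96). The other ACVR1B gene (ENSDARG00000052142) was at 21.5 CPM in thymus lymphocytes and 11.3 CPM in the tumor myeloid library. With the TGFBR1 gene at 3.52 CPM, the tumor myeloid library thus held at 1 CPM or more RNA for 3 genes of receptors known to be blocked by SB431542, and thymus lymphocytes for 4.

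Among other receptors, 6 matched genes, 2 were 4-fold or more higher in each library and 2 stayed below 1 CPM in both. TGFBR3, which encodes the co-receptor betaglycan, had 1691 reads in thymus lymphocytes, or 51.3 CPM, and 0 in the tumor myeloid library. That is at least 674-fold lower against the floor of 3 reads, with a counting interval of the ratio that starts at 548. The type II activin receptor gene ACVR2A was at 32.2 CPM in thymus lymphocytes and 161 CPM in the tumor myeloid library, 5.01-fold higher (4.69 to 5.35), whereas *acvr2ab* had 78 reads in thymus lymphocytes and 2 in the tumor myeloid library. *acvrl1*, a type I receptor best known from endothelium in mammals and zebrafish, had 10 reads in thymus lymphocytes and 2209 in the tumor myeloid library, or 56.0 CPM. The endothelial markers *cdh5*, *kdrl* and *tie1* had 1 read each in that library. Which cells the *acvrl1* reads came from was not tested.

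Receptors of the bone morphogenetic protein (BMP) branch went both ways. Both BMPR1A genes, for a type I receptor, were higher in the tumor myeloid library, at 61.2 and 24.5 CPM against 3 and 12 reads in thymus lymphocytes. Ratios of myeloid to thymus for BMPR1A were 673 (229.9 to 3264) and 67.4 (38.4 to 131). Both BMPR2 genes, for the type II receptor, were higher in thymus lymphocytes, at 32.2 and 70.1 CPM against 5.07 and 12.8 CPM. That is 6.35-fold (5.45 to 7.42) and 5.47-fold (4.96 to 6.03), the latter 3.65-fold with TMM. *acvr1l*, a zebrafish BMP type I receptor, was at 62.2 CPM in thymus lymphocytes and 23.2 CPM in the tumor myeloid library, whereas the paralogs *bmpr1ba* and *bmpr1bb* lay apart, with 267 and 7 reads in thymus lymphocytes and 4 and 277 in the tumor myeloid library. Of the 7 genes of this list 3 were 4-fold or more higher in each library.

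Of the SMADs that carry BMP signals, SMAD1 and SMAD5 were higher in the tumor myeloid library. The low *smad9*, with 34 reads in thymus lymphocytes and 9 in the tumor myeloid library, was not, nor was SMAD2, the partner of SMAD3. SMAD1 was at 10.4 CPM in thymus lymphocytes and 94.3 CPM in the tumor myeloid library, 9.04-fold higher (8.10 to 10.1). SMAD5 was at 44.1 and 100.4 CPM, 2.28-fold higher in the tumor myeloid library (2.14 to 2.42). SMAD2 was at 61.6 CPM in thymus lymphocytes and 33.0 CPM in the tumor myeloid library. Both genes of the common partner SMAD4 had reads in both libraries, with ENSDARG00000075226 at 24.6 and 7.25 CPM and ENSDARG00000012649 at 6.85 and 14.6 CPM. Unlike SMAD7, the inhibitory SMAD6 had 0 reads on both its genes in the tumor myeloid library, against 109 and 13 reads in thymus lymphocytes. Over the 8 genes of the list, 1 was 4-fold or more higher in the tumor myeloid library and 2 in thymus lymphocytes, of which *smad9*, at 1.03 CPM, was 3.02-fold higher with TMM.

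Among 13 genes for activins, nodals and BMPs, 3 were 4-fold or more higher in the tumor myeloid library, 2 in thymus lymphocytes and 7 were below 1 CPM in both. INHBA (ENSDARG00000024759), for the activin A subunit, had 1 read in thymus lymphocytes and 710 in the tumor myeloid library, a ratio of 594 with a counting interval that starts at 106. INHBB (ENSDARG00000040777), for the activin B subunit, was at 3.79 CPM in thymus lymphocytes and 23.9 CPM in the tumor myeloid library, 6.31-fold higher (5.23 to 7.66). BMP2 (ENSDARG00000041430) was at 31.5 CPM in thymus lymphocytes and 9.53 CPM in the tumor myeloid library, and the nodal gene *ndr2* at 6.25 and 0.761 CPM.

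Latent TGF-β is stored and released by other proteins, of which 10 genes matched. NRROS, which holds latent TGF-β1 on the surface of myeloid cells in mammals, was at 75.3 CPM in thymus lymphocytes and 192 CPM in the tumor myeloid library, 2.55-fold higher (2.44 to 2.67). ITGAV, the integrin chain that with β6 or β8 releases TGF-β, was at 54.6 CPM in thymus lymphocytes and had 8 reads in the tumor myeloid library, 269-fold lower (136 to 625). ITGB6 and ITGB8 had 113 and 231 reads in thymus lymphocytes and 2 reads each in the tumor myeloid library. Both genes for FURIN, the protease that cuts the TGF-β precursor, were present in both libraries, at 55.2 and 9.10 CPM in thymus lymphocytes and 28.2 and 8.75 CPM in the tumor myeloid library. In this list 1 gene was 4-fold or more higher in the tumor myeloid library, LTBP1 at 2.81 CPM, and 3 in thymus lymphocytes.

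Of 10 negative regulators, 4 were 4-fold or more higher in thymus lymphocytes and 2 in the tumor myeloid library, close to the 39.2% and 21.9% of all genes tested. SKIL (ENSDARG00000023933), a corepressor that binds SMADs, had 8662 reads in thymus lymphocytes, or 263 CPM, and 2 reads in the tumor myeloid library. Its paralog *skilb* had 6056 reads in thymus lymphocytes, or 184 CPM, and 20 reads in the tumor myeloid library, 362-fold lower (234 to 593). The ubiquitin ligase gene SMURF2 was at 106 CPM in thymus lymphocytes and 2.23 CPM in the tumor myeloid library, and SMURF1 at 67.8 and 13.7 CPM, 4.96-fold apart and 3.31-fold with TMM. SKI and TGIF1, further corepressors, were at 81.5 and 144 CPM in thymus lymphocytes and 30.6 and 185 CPM in the tumor myeloid library. BAMBI (ENSDARG00000055381), a decoy receptor without a kinase, had 15 reads in thymus lymphocytes and 1396 in the tumor myeloid library, or 35.4 CPM. The other BAMBI gene (ENSDARG00000099677) was at 19.8 CPM in thymus lymphocytes and 22.5 CPM in the tumor myeloid library, and *skib* was at 1.33 and 18.7 CPM.

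Genes that TGF-β or BMP can induce in mammals did not move as 1 group, and many respond to other signals too. Of 16 genes, 6 were 4-fold or more higher in the tumor myeloid library and 1, *foxp3a*, in thymus lymphocytes. TGFBI, an extracellular matrix gene, had 2 reads in thymus lymphocytes and 1622 in the tumor myeloid library, or 41.1 CPM. Both JUNB genes, for a transcription factor that many stimuli induce, were higher in the tumor myeloid library, at 4444 and 878 CPM against 523 and 91.7 CPM. The BMP targets ID1 and ID3 were at 1.33 and 44.2 CPM in thymus lymphocytes and 49.7 and 57.8 CPM in the tumor myeloid library, and *snai1a* had 0 reads in thymus lymphocytes and 1303 in the tumor myeloid library, at least 363-fold higher. KLF11 (ENSDARG00000030844), a repressor named for its induction by TGF-β, was at 105 and 42.4 CPM.

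**Figure D4:**
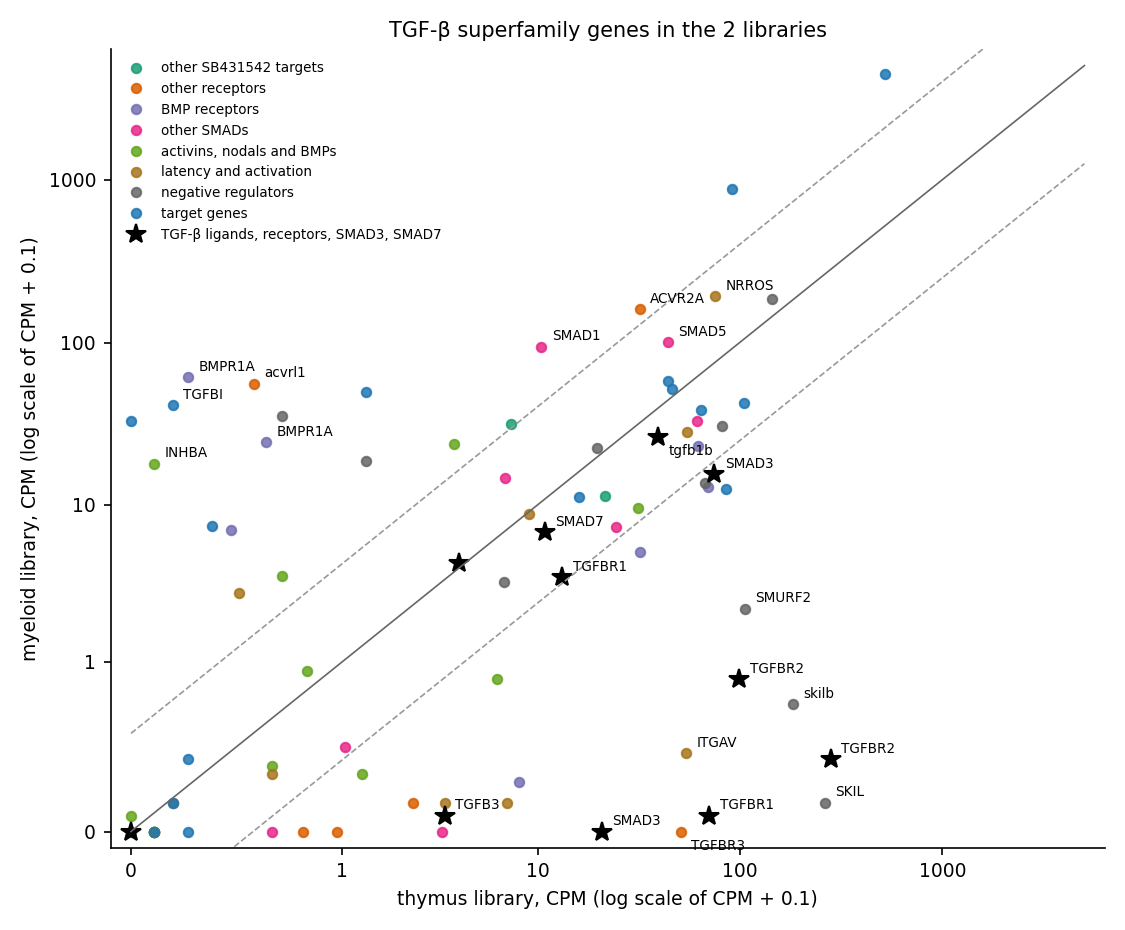
CPM of the 11 TGF-β pathway genes (stars) and of the 73 genes of the 8 lists (dots, colored by list) in thymus lymphocytes (horizontal) and the tumor myeloid library (vertical), on a log scale of CPM plus 0.1. The solid line marks equal values and the dashed lines 4-fold on this scale. TGFBR2, SKIL and TGFBR3 lie at the lower right, and BMPR1A, *acvrl1* and TGFBI at the upper left, with 19 of the 73 genes 4-fold or more higher in the tumor myeloid library and 17 in thymus lymphocytes.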

How the data were processed

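Cells were sorted, and cDNA was made from 1 ng of RNA with a SMART-Seq low input kit and sequenced after Nextera XT preparation. The deposited values are raw counts of reads per Ensembl gene, which the authors made with htseq-count. The submitters' processing notes name cutadapt, STAR, HTSeq and GRCz11, whereas the study's methods name TopHat, GRCz10 and FPKM. Strand setting and annotation release are not given in the sources used here. The thymus table held 5 rows of no gene, or 28.4% of its reads, left out of library sizes, and the myeloid table held none.

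Symbols from a table of gene names matched 29201 of 32520 IDs, and 4 of 77 symbols of the pathway lists matched none (*eng*, *ltbp3*, *klf10*, *itgae*). CPM, Wilson intervals and exact conditional binomial intervals of ratios were computed in Python 3.11.15 (numpy 2.4.6, pandas 2.3.3, scipy 1.17.1), the scalings with edgeR 4.0.16 and DESeq2 1.42.0 in R 4.3.3, and figures with matplotlib 3.10.9. A gene was called different at 4-fold or more if it was at 1 CPM or more in either library, with counts of 3 or fewer set to 3. The calculations were tested on simulated counts, which held no amplification noise and no ratios as large as those of TGFBR2. No p-value was computed, as each group had 1 library.

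All 11 TGF-β genes are named, and of each pathway list the 3 highest by CPM in each library and those with 3 reads or fewer in one library and 10 CPM or more in the other. Any further gene was picked with its values known. The values of 1 gene of the target list are not reported here. The members and lists were chosen with earlier results of these data known. Alternatives were thresholds of 0.5 and 5 CPM, a fold of 2, other filters, a pseudocount of 0.1 CPM, TMM and DESeq2 size factors. Totals that left out the 10 most abundant genes of each library, 16 genes in all, were also used.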

Additional observations from a re-analysis of the deposited data

How the results depend on the processing

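No paired analysis was possible because there was a single library on each side and nothing was tested, and no replicate could be left out. Scaling the paralog shares per kb was not run, since no transcript lengths for these IDs were used here, and the shares are of reads. At a threshold of 5 CPM, 3 of the 11 genes remained above it in the tumor myeloid library, instead of 5. The other counts moved by at most 1.5 times under the settings tried, and the number 4-fold or more higher in thymus lymphocytes was 5 with TMM or DESeq2 size factors, 7 at 2-fold and 6 otherwise. The median log2 ratio ranged from −2.26 to −1.64. The median of the 15139 genes shifted by 0.53 with TMM, by 0.49 with DESeq2 size factors and by 0.06 without the 10 genes with most reads in each library. Of 66 values of single levels under these scalings, added after the data were seen, 0 crossed 1 CPM, and of 30 ratios 1 changed sign, that of *tgfb1b* with TMM. Depth limits TGFB2, whose 0 reads lie under the floors of 0.0910 and 0.0761 CPM, against upper Wilson limits of 0.116 and 0.0974 CPM.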

Other observations

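Further genes of the superfamily were looked up by name after the values were seen, and they have no test. *tgfb5* and *tgfbr2l*, named as a further ligand and a receptor-like gene, were below 1 CPM in both libraries, with 16 and 12 reads in thymus lymphocytes and 5 and 29 in the tumor myeloid library. The *smad10a* and *smad10b* genes were, like TGFBR2, higher in thymus lymphocytes, with 333 and 2096 reads in thymus lymphocytes and 1 and 13 in the tumor myeloid library. Ligands differed by gene. BMP7 had 1541 reads in thymus lymphocytes, or 46.7 CPM, and 1 read in the tumor myeloid library. BMP5, *gdf6a*, a ligand gene known from zebrafish and human melanoma, and *gdf3* had 0 reads in thymus lymphocytes and 630, 530 and 293 in the tumor myeloid library. The ligand genes GDF9 and *amh* went the same way, with 0 and 6 reads in thymus lymphocytes and 285 and 238 in the tumor myeloid library. Whether these came from the myeloid or the melanoma cells was not tested.

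Genes for some proteins that act between receptor and nucleus were also looked up. ZFYVE9, which brings SMAD2 and SMAD3 to the receptor, was at 53.8 CPM in thymus lymphocytes and 14.1 CPM in the tumor myeloid library. MAP3K7, the kinase of the SMAD-independent branch, was at 89.8 and 28.3 CPM, and its partner TAB2 at 198 and 19.9 CPM. RNF111, a ubiquitin ligase that removes SKIL and SMAD7 in mammals, was at 244 CPM in thymus lymphocytes and 12.2 CPM in the tumor myeloid library, and the counting interval of the ratio of thymus to myeloid was 18.2 to 21.9. Others looked up with them went both ways. NEDD4L was at 15.7 CPM in thymus lymphocytes and 97.1 CPM in the tumor myeloid library, and CITED1 at 1.30 and 46.9 CPM. TAB3 was at 66.5 and 57.8 CPM, with a direction that changed with library scaling. TAB1, WWP1 and the EP300 and CREBBP genes were higher in thymus lymphocytes. *itgae.2*, one of 2 genes named for the αE integrin that TGF-β induces on mammalian tissue-resident T cells, was at 91.4 CPM in thymus lymphocytes and 57.7 CPM in the tumor myeloid library.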
